A study of Mus musculus with 25 samples.

Results

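The genes described here are 9 transcription factors that set the expression program of hepatocytes: Hnf4a, Foxa1, Foxa2, Foxa3, Cebpa, Onecut1, Prox1, Nr1i2 and Nr1i3. They were chosen by name, with earlier results of these data known, and make up 9 of the 17016 gene symbols that the arrays measure. Their RNA was measured in whole liver of mice whose hepatocytes lack Mcl-1, a protein of the BCL-2 family that keeps cells from dying by apoptosis, and in liver of littermates. The 25 arrays, each with RNA of 1 sample in a single colour, fall into 8 groups. Young mice, 2 months old, were 2 wild type, 3 Mcl-1 hemizygous and 3 Mcl-1 ko. The older groups held 3 wild-type and 4 ko mice of 12 months, with 3 further ko mice aged 8 months. Each of these 7 older ko mice gave a tumor sample, labelled as hepatocellular carcinoma, and a sample of its non-tumor liver, which the animal number pairs. The mice were untreated, and all samples were homogenates of liver tissue with every cell type in it. The labels do not say which Cre line drove the deletion, which exons it removed or the sex of the mice, and no wild-type mice of 8 months are among the samples analysed here.

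These 9 proteins bind DNA near liver genes and one another's genes, and together they keep hepatocytes differentiated. Hnf4a encodes a nuclear receptor that acts as a central activator of genes for lipoproteins, clotting factors and bile acid handling. Foxa1, Foxa2 and Foxa3 encode forkhead proteins that open chromatin for other factors. Cebpa encodes a leucine zipper protein that supports metabolic genes and restrains hepatocyte division, and Onecut1 encodes HNF6, which acts in hepatocytes and bile duct cells. Prox1 encodes a homeodomain protein that dampens the activity of nuclear receptors in hepatocytes and also marks lymphatic endothelium. Nr1i2 and Nr1i3 encode PXR and CAR, receptors that sense drugs, bile acids and bilirubin and switch on genes for detoxification.

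A table of mouse promoters (RefSeq, assembly GRCm38.p6) held all 9 genes, with 13 start sites between them. The 250 bases before 4 of these start sites are shown because these genes show how unlike the control regions of the set are. Nr1i3 and Cebpa have the 2 lowest unadjusted p-values in the comparison of 12-month ko with wild-type liver described below. Hnf4a and Foxa1 are shown for their motifs. All are printed 5′ to 3′ on the strand of the gene and end at the base before the start site, and capitals mark a match to 1 of 6 motifs. The Nr1i3 promoter lies at chr1:171213720-171213969 on the plus strand.
Nr1i3: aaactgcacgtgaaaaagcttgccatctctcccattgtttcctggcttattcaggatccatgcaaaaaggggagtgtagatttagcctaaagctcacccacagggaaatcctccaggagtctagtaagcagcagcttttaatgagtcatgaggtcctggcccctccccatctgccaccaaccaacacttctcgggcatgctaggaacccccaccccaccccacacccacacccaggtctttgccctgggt
The downstream start site of Hnf4a has its promoter at chr2:163546905-163547154 on the plus strand, inside the gene.
Hnf4a: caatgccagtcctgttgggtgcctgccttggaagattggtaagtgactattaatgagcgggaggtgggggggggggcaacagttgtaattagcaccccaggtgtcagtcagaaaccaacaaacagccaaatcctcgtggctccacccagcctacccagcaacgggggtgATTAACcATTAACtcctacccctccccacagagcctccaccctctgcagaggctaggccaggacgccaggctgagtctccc
The Cebpa promoter lies at chr7:35119043-35119292 on the plus strand.
Cebpa: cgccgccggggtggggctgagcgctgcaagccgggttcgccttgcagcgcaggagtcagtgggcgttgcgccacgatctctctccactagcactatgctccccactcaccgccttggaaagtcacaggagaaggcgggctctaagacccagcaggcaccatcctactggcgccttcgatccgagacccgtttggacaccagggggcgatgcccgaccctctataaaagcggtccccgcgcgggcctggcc
The Foxa1 promoter lies at chr12:57546112-57546361 on the minus strand, inside the gene as annotated. It is printed as the reverse complement of the plus strand.
Foxa1: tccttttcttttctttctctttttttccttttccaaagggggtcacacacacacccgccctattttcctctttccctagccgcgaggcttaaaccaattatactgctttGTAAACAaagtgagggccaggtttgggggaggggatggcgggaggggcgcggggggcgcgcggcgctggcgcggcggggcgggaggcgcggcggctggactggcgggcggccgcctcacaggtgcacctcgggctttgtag

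The motifs searched on both strands were CAAAGTCCA (HNF4), AGGTCA (a nuclear receptor half-site), TGTTTAC (forkhead), TTGCGCAA (C/EBP), ATCGAT (Onecut) and GTTAAT (a homeodomain half-site). The Hnf4a stretch holds GTTAAT on the opposite strand at 2 places, 81 to 76 and 74 to 69 bases before the start, printed as ATTAAC with 1 base between the copies. The Foxa1 stretch holds the forkhead motif on the opposite strand 141 to 135 bases before its own start, printed as GTAAACA. Among the 13 promoters, GTTAAT was found in 2, 1 of Hnf4a and 1 of Foxa2, against 6.43% of all 32851 promoters of the table. TGTTTAC was found in 1 of 13, against 3.17% of all. The other 4 motifs were in none of the 13. Over all promoters, CAAAGTCCA was in 0.384%, AGGTCA in 14%, TTGCGCAA in 0.164% and ATCGAT in 0.728%. The promoters of Cebpa and Foxa1 are rich in CpG, with 22 and 21 CpG and a GC content of 66.4% and 62.0%, while those of Nr1i3 and Hnf4a hold 2 and 4 CpG at 53.2% and 57.6%. The median over all promoters is 6 CpG and 52.4% GC. A match is a description of letters in this window, and no measurement of binding was made here.

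On each array 60.3% to 84.9% of the 41174 probes were well above background. The level used below is the log2 processed signal of a gene's probe minus the 75th percentile of its array, so a level of 0 means as bright as that percentile, and levels of different genes are not compared with each other. All 9 genes were well above background on all 25 arrays, and none of their probes was saturated. Mcl1 itself had a mean level of 4.26 ± 0.33 (SD, n = 2) in 2-month wild-type liver, 3.34 ± 0.21 (n = 3) in hemizygous liver and 1.82 ± 0.29 (n = 3) in ko liver. At 12 months it was 4.27 ± 0.35 (n = 3) in wild-type and 2.61 ± 0.18 (n = 4) in ko non-tumor liver, so every ko array lay below every wild-type array. Of 18 hepatocyte markers, 16 were measured, and all 16 were well above background on every array. Their summed level, the log2 of their added signals over the same percentile, ran from 12.4 to 12.6 in 2-month wild-type liver and from 12.1 to 12.6 in 12-month wild-type liver. It ran from 11.6 to 12.1 in 12-month ko non-tumor liver, which overlaps wild type of that age, and from 11.6 to 11.9 in 12-month tumors. In homogenates of whole liver, fewer hepatocytes and less RNA per hepatocyte cannot be told apart.

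Xist, the RNA of the inactive X chromosome, split the mice into high and low levels and was not balanced between groups. At 2 months it was high in 1 of 2 wild-type mice, in all 3 hemizygous mice and in 1 of 3 ko mice. In 12-month livers it was high in 1 of 3 wild-type and 2 of 4 ko mice.

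Each gene was set against the spread between mice with limma's moderated test, with Benjamini-Hochberg adjustment over all features of the array. In none of 12 comparisons did any of the 9 genes pass an adjusted p of 0.05. At 2 months, ko against wild type, 0 of 9 passed, with 0 of 9 at an unadjusted p under 0.05, and 7 of 27100 features passed (0.0258%). For ko against hemizygous liver the 9 gave 0 calls and 1 unadjusted p under 0.05, beside 14 called features (0.0517%) and 8.28% of features with an unadjusted p under 0.05. In hemizygous against wild-type liver no feature passed (0% of 27100), and 342 had an unadjusted p under 0.05. At 12 months, ko non-tumor against wild-type liver, 0 of 9 passed and 5 of 27100 features passed (0.0185%). An unadjusted p under 0.05 was seen for 2 of 9 and for 17.5% of all features. Tumors of 12 months against wild-type liver gave 0 calls among the 9, while 252 of 28413 features passed (0.887%). There 3 of 9, and 18.6% of all features, had an unadjusted p under 0.05. A p above the threshold does not show that a gene was unchanged, and each difference below therefore comes with its 95% interval. The labels do not say that the samples of a group came from separate cages or litters, so the p-values measure the spread between these mice only.

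**Figure D1:**
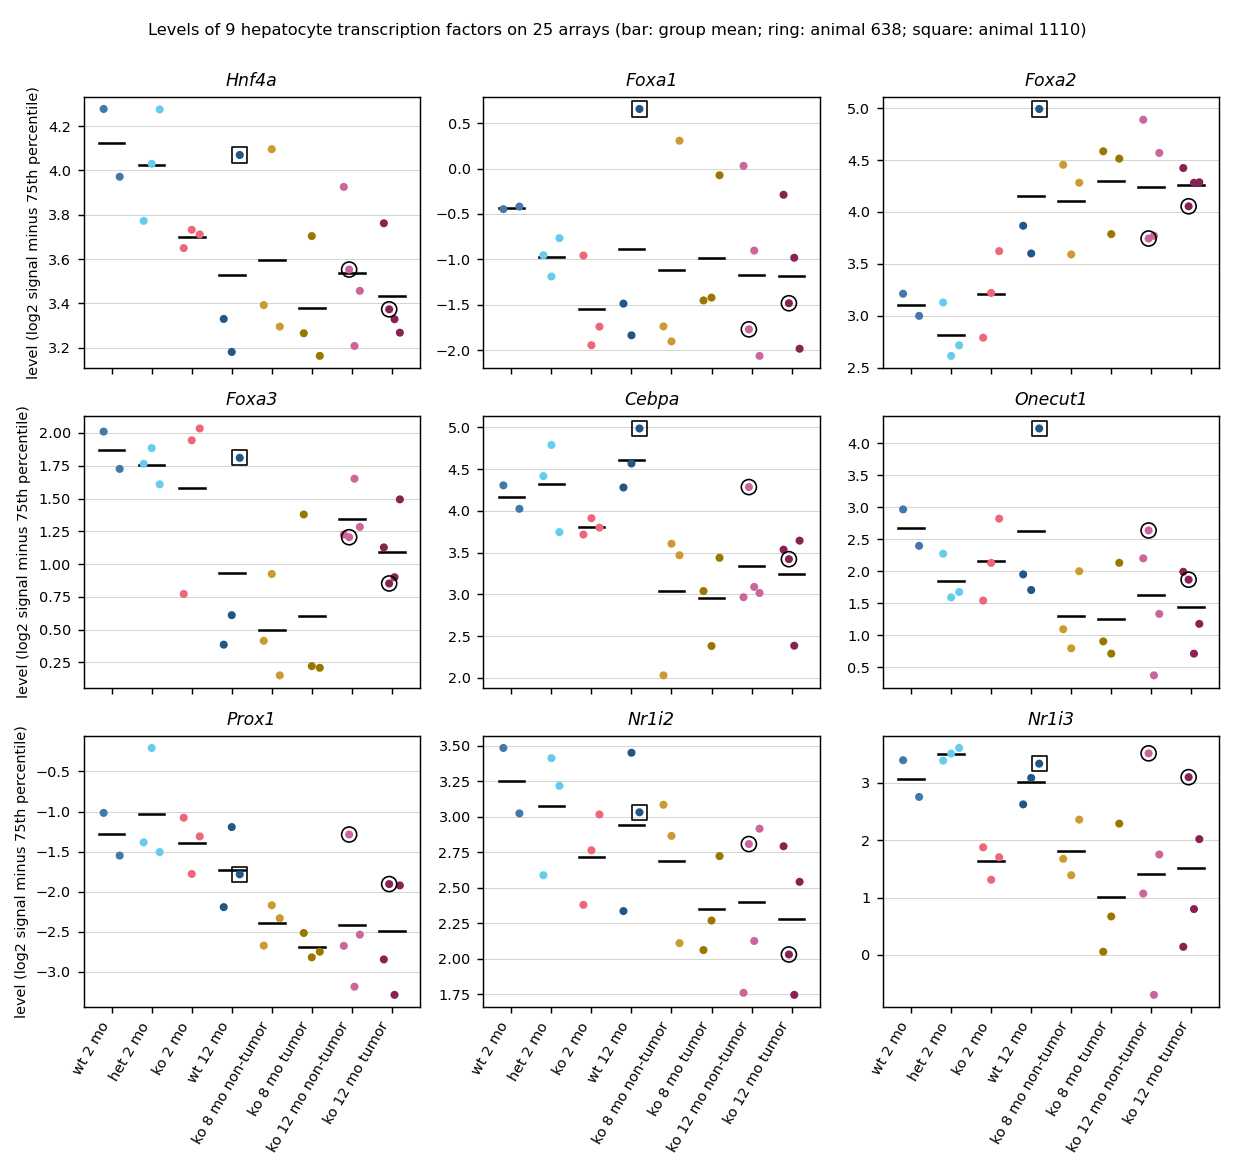
Level of each of the 9 genes (vertical axis, log2 signal over the array's 75th percentile) on all 25 arrays in 8 groups, with each array as a point and the group mean as a bar. A ring marks ko mouse 638, which has the highest Cebpa and Nr1i3 levels among the 12-month ko livers, and a square marks wild-type mouse 1110, which has the highest Foxa1, Foxa2 and Onecut1 levels of its group.

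Nr1i3, the gene of the xenobiotic receptor CAR, had a lower mean in ko than in wild-type liver at 2 and at 12 months, by more than any other of the 9 genes on the probes used. At 2 months that rank did not hold with slide as a block, where Foxa3, Cebpa and Onecut1 differed more. That block leaves 1 ko mouse to carry the comparison. In the 2-month wild-type mice the Nr1i3 level was 2.76 and 3.40, and in the hemizygous mice it was 3.39, 3.51 and 3.61. In the 2-month ko mice it was 1.31, 1.70 and 1.88. All 3 ko livers thus lay below all 5 livers of the other 2 genotypes. The difference from wild type was -1.44 (SE 0.79, 95% interval -3.14 to 0.25, limma adjusted p = 0.640). The difference from hemizygous mice was -1.87 (SE 0.71, interval -3.39 to -0.35, adjusted p = 0.498). Neither passed over all features.

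The arrays of these mice lay on 3 slides, and only 1 slide held both ko and hemizygous mice of 2 months. Within it, with 1 ko and 2 hemizygous mice, the difference of Nr1i3 was -1.57, the same as with slide as a block. With the Xist level as a covariate it was -1.27 against hemizygous and -1.20 against wild-type mice. No slide held 2-month ko and wild-type mice together. Through the hemizygous mice that each shared a slide with, the blocked difference was -1.04 for ko against wild type. That value rests on the same ko mouse and on 1 hemizygous mouse on the slide of the 2 wild-type mice.

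In 12-month wild-type mice the Nr1i3 level was 2.63, 3.09 and 3.34. In the non-tumor liver of 12-month ko mice it was -0.70 in mouse 702, 1.07 in mouse 1109, 1.75 in mouse 793 and 3.52 in mouse 638. Of these 4 ko mice, 3 lay below all wild-type mice and mouse 638 lay above them all, so the groups overlapped. Xist was high in ko mice 638 and 793, with the higher Nr1i3 levels, and low in mice 702 and 1109, with the lower ones. In wild type, mouse 641 alone had high Xist, and its Nr1i3 level lay between those of the other 2. The part of sex in these levels was not tested. The difference between ko and wild-type mice was -1.61 (SE 0.66, interval -3.03 to -0.18, adjusted p = 0.228). Over the other settings, Xist as a covariate among them, it was -1.79 to -1.41. Without mouse 638 it was -2.31 with an adjusted p of 0.0143, and 2831 of 26962 features then passed (10.5%) in place of 5. Without mouse 702 it was -0.90. With scan day as a block, which leaves only wild-type mouse 641, scanned with the ko mice, it was -1.68. This block also moved the median of all features downward, as given in the last section. Mouse 641 had high Xist, unlike the other 2, and 84.9% of its probes were well above background, against 60.8% and 61.0%. The same mouse carries the values with this block for 12-month ko non-tumor against wild-type liver given below. No slide held both groups, so slide and genotype could be separated only by a random block. The value therefore rests on which of these ko mice are counted.

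At 8 months the non-tumor livers had Nr1i3 levels of 1.39, 1.68 and 2.36, each below the lowest of the 5 wild-type arrays of either age. Sorted by group mean, the 3 non-ko groups led Nr1i3, and the step of 1.21 from 12-month wild type down to 8-month non-tumor ko liver was larger than either group's SD. The steps among the ko groups below it, from 1.81 at 8 months to 1.01 in 8-month tumors, lay within their spread. How often other features show such a step was not counted. Tumors of 12-month mice had levels of 0.14 in mouse 1109, 0.80 in mouse 702, 2.02 in mouse 793 and 3.10 in mouse 638. Mouse 638 was again the highest. Against 12-month wild type the tumors differed by -1.5 (SE 0.69, interval -2.94 to -0.06, adjusted p = 0.249).

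Nr1i2, the gene of the related receptor PXR, ranged less widely than Nr1i3. At 2 months its level was 3.02 and 3.48 in wild-type and 2.38, 2.76 and 3.02 in ko mice. The highest ko mouse came within rounding of the lowest wild-type mouse but did not reach it. The difference was -0.53 (SE 0.44, interval -1.48 to 0.41, adjusted p = 0.804). At 12 months the wild-type mice ran from 2.34 to 3.45 and the ko non-tumor livers from 1.76 to 2.92, which overlap. The difference was -0.54 (SE 0.37, interval -1.33 to 0.25, adjusted p = 0.491). With scan day as a block, which leaves mouse 641, the highest wild-type mouse, it was -1.05. In 12-month tumors the difference from wild type was -0.66 (interval -1.50 to 0.17, adjusted p = 0.409), or -1.15 with that block.

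Cebpa was the gene with the smallest p of the 9 at 12 months. In 12-month wild-type mice its level was 4.28, 4.57 and 4.99. In the non-tumor livers of ko mice 1109, 793 and 702 it was 2.97, 3.02 and 3.09, and in mouse 638 it was 4.28. As with Nr1i3, 3 ko mice lay far below wild type and mouse 638 reached its lower edge. The difference was -1.27 (SE 0.41, interval -2.16 to -0.39, adjusted p = 0.151), and without mouse 638 it was -1.59 with an adjusted p of 0.0222, in the same comparison in which 10.5% of all features passed. With scan day as a block it was -1.23 (adjusted p = 0.197). Mouse 638 also had the lowest summed level of 17 dividing-cell markers among the 4 non-tumor livers, 2.91, in a group that reached 5.62. The part of that difference in the Cebpa and Nr1i3 values was not tested.

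The 12-month tumors had Cebpa levels of 2.38, 3.42, 3.54 and 3.64, all below the wild-type mice of that age. This was the only non-overlap between these tumors and wild-type liver among the 9 genes, and 7.45% of all features were lower without overlap. The difference was -1.37 (SE 0.45, interval -2.31 to -0.42, adjusted p = 0.108). A second Cebpa probe followed the first across the 25 arrays (Pearson r = 0.962) and gave larger differences from wild type, -2.14 in non-tumor liver and -1.92 in tumors.

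At 2 months Cebpa levels were 4.02 and 4.31 in wild-type mice, 3.75, 4.42 and 4.79 in hemizygous mice and 3.72, 3.8 and 3.91 in ko mice. The ko mice lay below the wild-type mice and overlapped the hemizygous mice. The difference was -0.36 (interval -1.41 to 0.70, adjusted p = 0.904) against wild type and -0.51 (interval -1.45 to 0.44, adjusted p = 0.837) against hemizygous mice. The change of the ko difference from 2 to 12 months was -0.92 (interval -2.29 to 0.46, adjusted p = 0.633). In the 8-month non-tumor livers the level was 2.03, 3.47 and 3.61, below all 3 of the 2-month ko mice, with a difference of -0.77 (interval -1.72 to 0.17, adjusted p = 0.413). No slide held ko mice of different ages, so age and slide cannot be told apart in the differences between ko ages, here and below.

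In wild-type mice Prox1 differed by -0.44 between 12 and 2 months (interval -1.55 to 0.67, limma adjusted p = 0.797). The change of its ko difference between these ages was -0.59 (interval -2.03 to 0.85, adjusted p = 0.779). Prox1 also had lower mean levels in the older ko livers than in the young ones. Its level was -1.78, -1.31 and -1.08 in 2-month ko mice and -2.67, -2.33 and -2.17 in 8-month non-tumor liver. These groups did not overlap. Of the 9 genes, Prox1 and Cebpa were lower without overlap in this comparison, 2 of 9, beside 11.5% of all features. The difference was -1.0 (SE 0.46, interval -1.99 to -0.01, adjusted p = 0.307), while 0 of 27100 features passed (0%) and 4314 had an unadjusted p under 0.05. In this and the 12-month comparison with young ko liver, age cannot be told apart from slide.

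At 12 months the non-tumor levels of Prox1 were -3.19, -2.68, -2.54 and -1.29, the last in mouse 638. That mouse again stood above the other 3, among the 2-month values. The difference from 2-month ko liver was -1.03 (SE 0.43, interval -1.96 to -0.11, adjusted p = 0.256), in a comparison where 2 of 27100 features passed (0.00738%). Wild-type mice of 12 months had -2.19, -1.78 and -1.19, and ko non-tumor liver differed from them by -0.70 (interval -1.62 to 0.23, adjusted p = 0.439). With scan day as a block, which leaves mouse 641 at -1.19, the highest of these, the difference was -1.23. Tumors differed by -0.77 (interval -1.63 to 0.10, adjusted p = 0.337). The signal of the Prox1 probe is low, and with normexp background correction the differences were smaller, -0.36 for 8-month and -0.42 for 12-month against 2-month ko liver and -0.26 for 12-month ko against wild type. The second Prox1 probe (r = 0.958 with the first) gave -1.21, -1.17 and -1.19 for these 3 comparisons and -0.98 for 12-month tumors against wild type.

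Since Prox1 also marks lymphatic endothelium, the 6 measured of 8 other lymphatic markers were read beside it. Their summed level was 2.16 to 2.28 in 2-month wild-type mice, where Nts was above background on no array, and 3.06 to 3.24 in 2-month ko mice. In 8-month non-tumor liver it was 2.69 to 4.04. At 12 months it was 2.13 to 3.44 in wild-type and 3.26 to 3.71 in ko non-tumor liver, where Pdpn was above background on no array. At 2 months every ko mouse thus had a higher summed lymphatic level than the wild-type mice, while Prox1 overlapped between these genotypes at -1.55 and -1.02 in wild type. Taken singly, 4 of the 6 markers were above 0 and 2 below 0 in ko against wild-type mice of that age. Their part in the Prox1 differences was not tested.

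**Figure D2:**
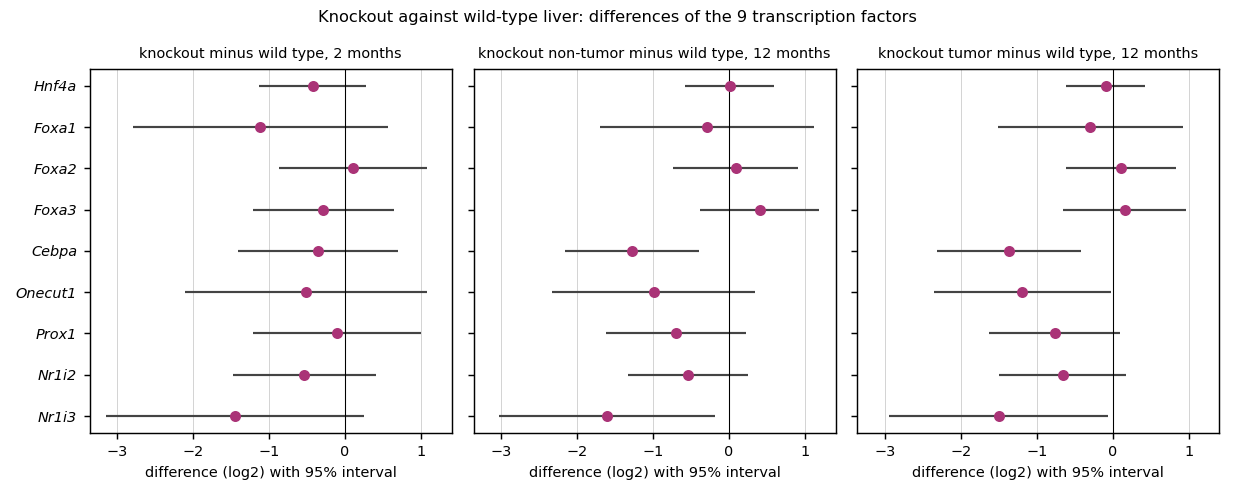
Difference in level (horizontal axis, log2) of each of the 9 genes with its 95% interval, in 3 panels: 2-month ko minus wild-type liver, 12-month ko non-tumor minus wild-type liver, and 12-month tumor minus wild-type liver. Intervals of Cebpa and Nr1i3 lie below 0 in both 12-month panels, yet no gene passed after adjustment over all features.

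Hnf4a had the smallest spread of the 9 over the 25 arrays, with an SD of 0.35, against 1.23 for Nr1i3, which had the largest. At 2 months its level was 3.97 and 4.28 in wild-type mice, 3.77, 4.03 and 4.28 in hemizygous mice and 3.65, 3.71 and 3.73 in ko mice. On this probe, the brightest of 3, the ko mice lay below every mouse of the other genotypes. The difference was -0.43 (SE 0.33, interval -1.13 to 0.28, adjusted p = 0.783) from wild type and -0.33 (SE 0.29, interval -0.96 to 0.30, adjusted p = 0.844) from hemizygous mice.

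Over the whole set, 5 of 9 genes were lower without overlap in 2-month ko than in wild-type mice: Hnf4a on its brightest probe, Foxa1, Cebpa, Nr1i2 and Nr1i3. With groups of 3 and 2 such a pattern was common, in 19.0% of all features. Against hemizygous mice it was seen for Hnf4a and Nr1i3, 2 of 9, beside 9.34% of all features. The signs leaned the same way, with 8 of 9 differences from wild type below 0 and a median of -0.43, beside a median of -0.01 over all features. The sizes depend on the slide. With slide as a block, 1 ko mouse carries the comparison. The differences from wild type were then -0.10 for Hnf4a, -0.22 for Foxa1, -1.31 for Cebpa and -1.40 for Onecut1, all below 0. Foxa3 also lay further below 0 with this block than without it.

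At 12 months Hnf4a was 3.18, 3.33 and 4.07 in wild-type mice and 3.21, 3.46, 3.55 and 3.93 in ko non-tumor liver. These ranges nearly coincide, and the difference was 0.01 (SE 0.27, interval -0.58 to 0.60, adjusted p = 0.992). Within wild type, the 12-month mice differed from the 2-month mice by -0.60 (interval -1.30 to 0.11, adjusted p = 0.532). The Hnf4a value rests on the brightest of 3 probes, and the probes disagree, with correlations of 0.436 to 0.614 across the 25 arrays. The other 2 probes, both dimmer but above background on every array, gave -1.38 and -0.85 for 12-month ko non-tumor against wild-type liver. At 2 months they gave 0.18 and 0.16 for ko against wild type, where the brightest probe gave -0.43. For this gene, then, the direction of the ko difference differs between probes at both ages. With its probes averaged, the difference between wild-type ages was -0.02 and that of ko from wild type at 2 months -0.03.

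The 3 Foxa genes were ordered differently with age. Foxa2 had higher mean levels in old than in young liver in both genotypes. Its level was 3.0 and 3.21 in 2-month and 3.60, 3.87 and 4.99 in 12-month wild-type mice. The ages did not overlap, a pattern that 15.2% of all features showed in this direction, and the difference was 1.05 (SE 0.46, interval 0.07 to 2.03, adjusted p = 0.439). In this comparison 10 of 27100 features passed (0.0369%). Of the 3 older wild-type arrays, 2 were on a slide scanned on another day. With slide as a block, which leaves the third mouse to carry the comparison through the ko mice of its slide, the difference was -0.29.

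In ko mice Foxa2 levels were 2.79, 3.22 and 3.62 at 2 months, 3.59, 4.28 and 4.45 in 8-month and 3.74, 3.77, 4.57 and 4.89 in 12-month non-tumor liver. At 12 months all 4 livers lay above the 2-month livers, which 6.43% of all features did. The difference was 0.90 (SE 0.41, interval 0.02 to 1.78, adjusted p = 0.303) at 8 months and 1.03 (SE 0.38, interval 0.21 to 1.85, adjusted p = 0.223) at 12 months. No slide held ko mice of different ages, so age and slide cannot be told apart in either value. Between 12-month ko non-tumor and wild-type liver the difference was 0.09 (interval -0.73 to 0.91, adjusted p = 0.933), or 0.64 with scan day as a block. Foxa2 is the only gene of the set whose probe was printed more than once, in 10 spots per array, and these agreed to an SD of 0.02 to 0.12 (log2).

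Foxa3 showed the opposite order with age in wild type, with 1.73 and 2.01 at 2 months and 0.39, 0.61 and 1.81 at 12 months. The groups overlapped, and the difference was -0.93 (SE 0.44, interval -1.87 to -0.00053, adjusted p = 0.468), or -2.69 with slide as a block. In ko liver the levels were 0.77, 1.94 and 2.03 at 2 months and 0.15, 0.42 and 0.92 in 8-month non-tumor liver, a difference of -1.09 (SE 0.39, interval -1.92 to -0.25, adjusted p = 0.206). In 12-month ko mice they were 1.2, 1.23, 1.28 and 1.65. All 4 lay above the 8-month livers, a pattern of 1.88% of all features and, among the 9 genes, of Foxa3 alone. The difference between 12 and 8 months was 0.84 (SE 0.36, interval 0.06 to 1.62, adjusted p = 0.921), and 0 of 27100 features passed (0%), with 1423 at an unadjusted p under 0.05. As no slide held ko mice of different ages, these ko differences cannot be told apart from slide. Against 12-month wild type the ko non-tumor livers differed by 0.41 (interval -0.37 to 1.19, adjusted p = 0.619), or 0.73 with scan day as a block.

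Foxa1 levels at 2 months were -0.45 and -0.42 in wild-type mice, -1.19, -0.95 and -0.77 in hemizygous mice and -1.95, -1.74 and -0.96 in ko mice. Both other genotypes lay below wild type. The difference was -1.12 (SE 0.78, interval -2.79 to 0.56, adjusted p = 0.75) for ko and -0.54 (interval -2.21 to 1.14, adjusted p = 1.0) for hemizygous mice. Foxa1 and Onecut1 were the 2 of 9 genes that were lower without overlap in hemizygous than in wild-type mice, as were 10.2% of all features.

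At 12 months a single mouse set the Foxa1 spread in wild type, with -1.84 and -1.49 in 2 mice and 0.66 in mouse 1110. In ko non-tumor liver the levels were -2.06, -1.77, -0.90 and 0.03. The difference was -0.29 (interval -1.69 to 1.12, adjusted p = 0.868), and without mouse 1110 it was 0.49. With scan day as a block, which also sets that mouse apart, it was 0.66. The change of the ko effect between the ages was 0.83 (interval -1.36 to 3.02, adjusted p = 0.800). Of the tests of such a change with age, 0 of 27100 features passed (0%) and 2620 had an unadjusted p under 0.05.

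Onecut1 had levels of 2.40 and 2.97 in 2-month wild-type mice, 1.59, 1.68 and 2.27 in hemizygous mice and 1.54, 2.13 and 2.82 in ko mice. The hemizygous mice were lower than wild type by 0.83 on average (SE 0.74, interval of the difference -2.43 to 0.76, adjusted p = 1.0), and the ko mice overlapped both. The ko difference from wild type was -0.52 (interval -2.11 to 1.08, adjusted p = 0.908). At 12 months wild-type mice had 1.71, 1.95 and, in mouse 1110, 4.23. The ko non-tumor livers had 0.37 in mouse 702, 1.33, 2.20 and 2.64. The difference was -0.99 (SE 0.62, interval -2.32 to 0.34, adjusted p = 0.445), and without mouse 1110 it was -0.19, so that mouse carried most of it. Tumors differed from wild type by -1.19 (SE 0.56, interval -2.36 to -0.02, adjusted p = 0.258), and by -0.39 without mouse 1110. In 8-month against 2-month ko liver, which shared no slide, the difference was -0.87 (interval -2.29 to 0.56, adjusted p = 0.558).

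Onecut1, Foxa1 and Foxa2 are also active in bile duct cells, so 16 cholangiocyte and progenitor markers, all measured, were read beside them. Their summed level was 3.77 to 4.16 in 2-month wild-type, 4.06 to 5.50 in 2-month ko and 3.73 to 4.27 in 12-month wild-type liver. In 12-month ko non-tumor liver it was 5.05 to 7.94 and in the tumors of that age 4.83 to 8.10. Ehf was above background on no 2-month array, and Cldn4 and Cftr were above it on none of the 2-month wild-type arrays. These markers separated 12-month ko from wild-type liver without overlap, whereas none of the 9 transcription factors did, and 10.2% of all features did in either direction. Their part in the levels of these 3 factors was not tested.

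Sorted by group mean, the 8 groups of each gene form 7 neighbouring steps, 63 in all. Only 6 of these were larger than the SD of both neighbours, and in 3 of them the neighbouring groups did not overlap. Those 3 were hemizygous above ko at 2 months for Hnf4a, wild type above ko at 2 months for Cebpa, and 12-month wild type above 8-month non-tumor ko liver for Nr1i3. The others were the step to 8-month non-tumor liver for Foxa2 (above 2-month ko) and Prox1 (below 12-month wild type), and that from wild type down to hemizygous liver for Foxa2 at 2 months. For Foxa1, Foxa3, Onecut1 and Nr1i2 no neighbours in the order differed beyond their spread. The same sorting was not applied to all features, so these counts of steps have no background and single out no gene. As single comparisons, 2-month ko liver was lower without overlap than hemizygous liver in 9.34% of all features. Against wild-type liver of that age the share was 19.0%.

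Averaged over the 7 mice, the log2 difference of tumor from non-tumor tissue of the same mouse lay between -0.28 for Nr1i3 and 0.09 for Foxa2. The differences in single mice were larger, and over the 9 genes they ran from -1.62 to 1.5, both in Nr1i3. The value of -1.62 came from mouse 1347, whose arrays, unlike those of the other mice, lay on different slides scanned on different days. Hnf4a was lower in the tumor of 6 of 7 mice, by 0.15 on average (SD 0.15 over mice, 95% interval of the difference -0.43 to 0.13, limma adjusted p = 1.0). That SD is below the median of 0.581 over all features. No gene of the 9 had the same sign in all 7 mice, as 1.46% of all features did. In this comparison 0 of 24588 features passed (0%), and 995 had an unadjusted p under 0.05, none of them among the 9.

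**Figure D3:**
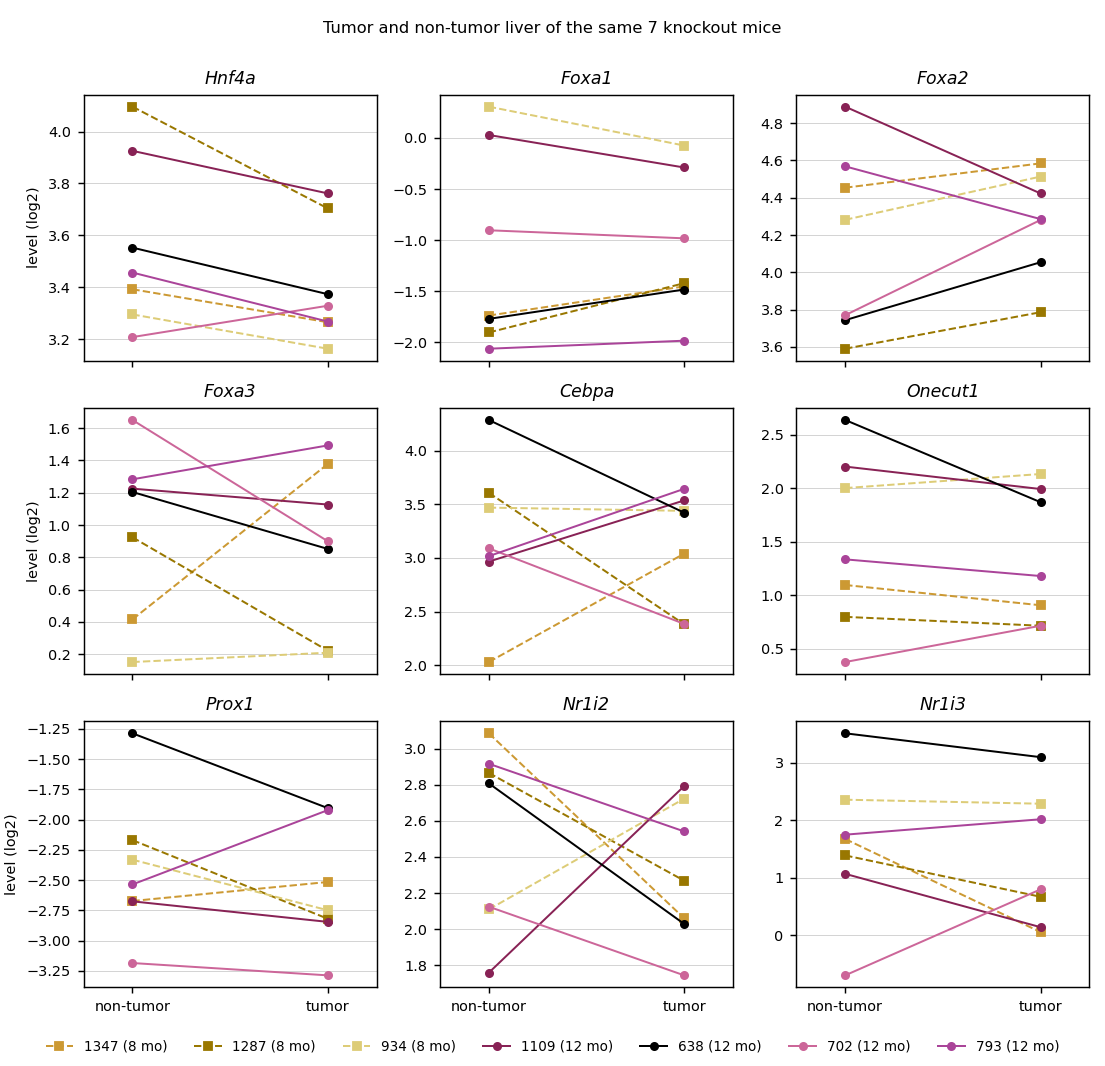
Level (vertical axis, log2) of each of the 9 genes in non-tumor and tumor tissue, with a line for each of the 7 ko mice, dashed with squares for the 3 mice of 8 months and solid with circles for the 4 of 12 months, and mouse 638 in black. Lines run both up and down for every gene, and the lines of Hnf4a and Foxa1 are close to level.

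Nr1i3 was lower in the tumor of 5 of 7 mice, with differences from -1.62 to 1.5. The mean was -0.28 (SE 0.33, interval -1.04 to 0.47, adjusted p = 1.0). The mice themselves ranged from -0.70 to 3.52 in non-tumor tissue and from 0.06 to 3.10 in tumor, wider than the difference between tissues. The change of the pair difference with age was 0.91 (SE 0.63, interval -0.55 to 2.36, adjusted p = 0.973), and again 0 of 24588 features passed that test (0%), with 1491 at an unadjusted p under 0.05.

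Cebpa was lower in the tumor of 4 of 7 mice, with a mean of -0.09 (SE 0.29, interval -0.75 to 0.58). Its pair differences ran from -1.23 to 1.01. Onecut1 (-0.13, interval -0.49 to 0.22), Prox1 (-0.17, interval -0.58 to 0.24) and Nr1i2 (-0.22, interval -0.81 to 0.38) were each lower in the tumor of 5 of 7 mice. Foxa1 (0.05, interval -0.30 to 0.40), Foxa2 (0.09, interval -0.26 to 0.45) and Foxa3 (-0.10, interval -0.59 to 0.40) were lower in 3, 2 and 4 of 7. All 7 adjusted p-values were 1.0. Of the 7 pairs, 6 had both arrays on one slide. The arrays of mouse 1347 lay on different slides and scan days, so its pair differences cannot be told apart from slide and day. That mouse had the lowest pair difference in Nr1i3 and Nr1i2 (-1.02) and the highest in Cebpa (1.01) and Foxa3 (0.96).

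The tumors covered much the same levels as the non-tumor livers. Cebpa had a median of 3.42 in tumors, from 2.38 to 3.64, and of 3.09 in non-tumor liver, from 2.03 to 4.28. For Prox1 the medians were -2.75 and -2.54, with lowest values of -3.29 and -3.19 in the tissues of mouse 702 and highest values of -1.90 and -1.29 in those of mouse 638. The lowest and the highest Prox1 level thus came from the same mice in both tissues. Onecut1 had a median of 1.18 in tumors, from 0.71 to 2.13, and of 1.33 in non-tumor liver, from 0.37 to 2.64. Nr1i2 had 2.27, from 1.75 to 2.79, and 2.81, from 1.76 to 3.08. Foxa2 ran from 3.79 to 4.58 in tumors and from 3.59 to 4.89 in non-tumor liver, and Hnf4a from 3.16 to 3.76 and from 3.21 to 4.10. In each of these genes the ranges of the tissues overlapped over most of their length.

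Genes that these factors are known to act on were read as 3 lists, beside a list of other liver transcription factors. At 12 months, in ko non-tumor liver, none of their members passed. Of 32 measured HNF4A targets, 24 were below 0 with a median difference of -0.34, beside 55.6% below 0 and a median of -0.10 over all features. Slc10a1, the main uptake carrier of bile acids, differed by -2.03 (SE 0.39, adjusted p = 0.0926). Cyp8b1, the enzyme for cholic acid synthesis, differed by -3.92 (SE 0.92, adjusted p = 0.109). Apob, the structural protein of very low density lipoprotein, differed by -2.06 (SE 0.47, adjusted p = 0.105). The other transcription factors leaned the same way, with 22 of 31 below 0 and a median of -0.61.

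In 12-month tumors against wild-type liver, 2 of 32 HNF4A targets passed, both lower, with 24 below 0 and a median of -0.44. Over all features 0.887% passed in either direction, 51.6% were below 0 and the median was -0.03. Slc10a1 differed by -2.34 (SE 0.54, limma adjusted p = 0.0477), and Cideb, a lipid droplet protein, by -1.72 (SE 0.35, adjusted p = 0.0462). Of the 31 other transcription factors 1 passed, Nfix of the nuclear factor I family, which differed by -2.34 (SE 0.52, adjusted p = 0.0477). Of 22 targets of C/EBPA and FOXA none passed, 15 were below 0, and Afp, the fetal serum protein, differed by 5.18 (SE 1.33, adjusted p = 0.0585). In the same tumors 8 of 17 dividing-cell markers passed, all higher. Their part in the values of the lists was not tested.

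Targets of PXR and CAR showed both directions. At 2 months, ko against hemizygous liver, 1 of 30 passed, beside 14 of 27100 features (0.0517%). It was Cyp2c55, a cytochrome P450 induced through these receptors, which rose by 2.94 (SE 0.48, limma adjusted p = 0.0480). Against wild type Cyp2c55 differed by 2.65 (SE 0.54, adjusted p = 0.173). In that comparison 17 of 30 targets were below 0, with a median of -0.20, beside 51% of all features and a median of -0.01. Cyp3a11, a classical PXR target, differed by 1.60 (SE 0.34, adjusted p = 0.197). Por, the reductase that supplies electrons to cytochromes P450, differed by -1.76 (SE 0.50, adjusted p = 0.329). At the age at which Nr1i3 was lower without overlap, the listed targets of PXR and CAR lay on both sides of 0. The list does not tell targets of CAR from those of PXR. It also holds Cyp2b9, Cyp2b13, Cyp2a4 and Sult2a1, which are female-biased liver genes, and Xist was not balanced between the groups of this age. The part of sex in these values was not tested. At 12 months none of 30 passed in ko non-tumor liver, with 18 below 0 and a median of -0.29. Over all features 55.6% were below 0 there, close to the share of this list. Of 14 coregulators of nuclear receptors none passed in either comparison of ko with wild type. Of these, 11 were below 0 at 2 months and 9 at 12 months, beside 51% and 55.6% of all features.

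Other lists moved with genotype at 2 months as well. The summed level of 16 clock genes was 7.01 to 7.65 in wild-type and hemizygous and 5.31 to 5.70 in ko mice. That of 16 macrophage markers was 5.82 to 6.31 and 7.13 to 7.22. Dividing-cell markers ran from 1.58 to 2.63 in the first 5 mice and from 3.47 to 6.23 in ko mice, and stellate cell and matrix genes from 6.1 to 6.57 and from 7.13 to 7.47. Neutrophil markers ran from 0.09 to 0.88 and from 1.41 to 2.93, and lymphatic markers from 2.16 to 2.78 and from 3.06 to 3.24. Of the 10 neutrophil markers measured, 6 were above background on no wild-type array of this age and 4 on no hemizygous array. Among 17 dividing-cell markers, 3 were above it on no wild-type array. Gpnmb of the macrophage list and Lox of the matrix list were above it on no wild-type or hemizygous array. The summed levels of all 6 lists separated the 3 ko mice from the other 5, as Nr1i3 did. Against wild type, 5 of 16 clock genes and 2 of 6 lymphatic markers went against the sum of their list. The part of these lists in the Nr1i3 difference was not tested.

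**Figure D4:**
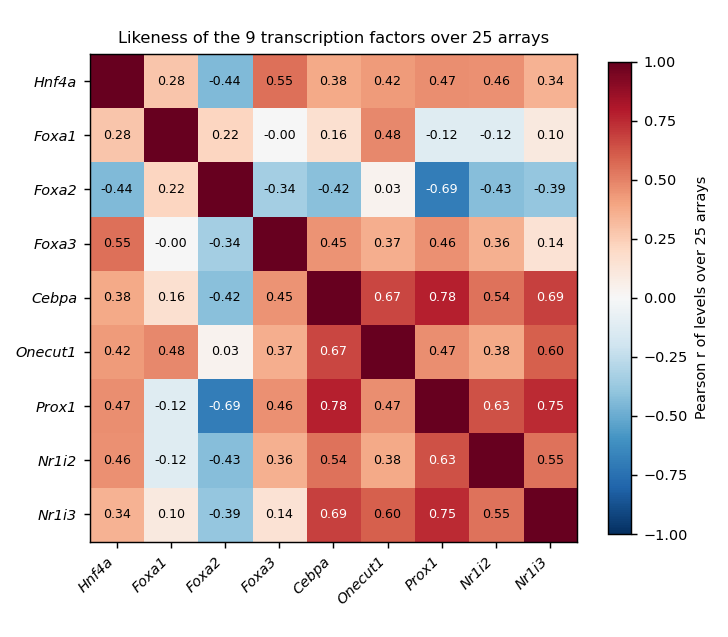
Pearson correlation of levels between each pair of the 9 genes across the 25 arrays, on a colour scale from -1 to 1. Cebpa, Prox1 and Nr1i3 form the block of highest positive values, and Foxa2 has negative values with Prox1.

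Across the 25 arrays Cebpa, Prox1 and Nr1i3 were most alike. The correlation was 0.778 between Cebpa and Prox1, 0.749 between Prox1 and Nr1i3 and 0.686 between Cebpa and Nr1i3. Over the 18 arrays without tumor tissue these were 0.732, 0.726 and 0.679. Cebpa and Onecut1 gave 0.668 and Foxa3 and Hnf4a 0.548, while Foxa2 and Prox1 ran opposite at -0.695. These values describe the arrays, which share genotype and age groups, and 7 mice gave 2 arrays each.

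Among 11257 genes above background on every array, the most like Nr1i3 were Abcb6 (r = 0.917) and Adtrp (0.903). The most like Cebpa were Ppp1r37 (0.961), R3hdm4 (0.957) and Gtpbp1 (0.951), and the most like Prox1 were Baiap2 (0.921), Mllt10 (0.909) and Notum (0.901). Genes among the most like Foxa2 were Irf3 (0.873) and G3bp1 (0.859). For Onecut1 they were Creld1 (0.862), Tubg1 (0.848) and Smg5 (0.841), and for Foxa3 they were Pkdcc (0.851), Prdm2 (0.817) and Igfbp2 (0.804). Lower peaks were seen for Nr1i2 with Nfu1 (0.831), Tas1r3 (0.797) and Tsacc (0.783) and for Foxa1 with Mrgpre (0.819), Ccdc117 (0.805) and Rap2a (0.794). Hnf4a had the lowest best match, Tmem183a (0.791), with Rab7 (0.791) and Uri1 (0.778) beside it. None of the 9 was among the 3 best matches of another.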

How the data were processed

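RNA of 25 liver samples was hybridised to single-colour Agilent arrays. The authors deposited scanner files with an intensity per spot, whose processed signal is background-subtracted within the array, per the file headers. The log2 values of the authors' series matrix served only as an alternative. Their ranks follow the uncorrected median signal, and how they were normalised between arrays is not given in the sources used here. Per the submitters' processing notes limma was used, with no role given.

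Here, log2 processed signal was averaged over spots without an outlier mark and the array's 75th percentile was subtracted. Of 41174 probes, 24375 (59.2%) matched a RefSeq symbol (GRCm38.p6), and a gene is its probe of highest mean signal. A feature is a gene or an unnamed probe, kept when enough arrays showed it well above background, namely the size of the smallest group (2, or 3 in the pairs). The summed level of a list is the log2 of the summed linear levels of its genes. The number of arrays per group limits the precision.

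Differences were tested with limma 3.58.1 in R 4.3.3 (two-sided, Benjamini-Hochberg, threshold 0.05). One fit took the 18 arrays without tumor in 6 groups, another the 14 arrays of the 7 ko mice with tumors with the mouse as a fixed block, and the last all 25 arrays in 8 groups with the mouse as a random block, its correlation estimated on 3000 evenly spaced features. The fits were tested on simulated data. The pairing comes from the animal numbers in the labels.

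Members, lists and tests were chosen with earlier results of these data known. The rule for naming genes covers the 9 genes on all arrays, up to 4 genes per list with the smallest p and each one past the threshold, the 3 genes most like each member, and Mcl1. Some genes that this rule names are not reported here. Alternatives were other normalisations (normexp with quantile, quantile, the series matrix), filters, all probes of a gene, slide, scan day or Xist in the model, other sets of arrays, and leaving out each array or mouse. The files hold no mean signal, so normexp used the median signal and its background.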

Additional observations from a re-analysis of the deposited data

Results flagged for a closer look

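In the non-tumor liver of 12-month ko mice, the Cebpa level of mouse 638 was 4.28, far above the other 3 mice at 2.97, 3.02 and 3.09. Its gap to the next mouse was 0.906 of the whole range of the group. Of 27 groups searched in this way, this was the only such case, and chance gives about 1 in 20. The search took, for each gene, the 12-month ko non-tumor livers, the 12-month tumors and the pair differences. Smaller groups were not searched, among them 12-month wild type, where mouse 1110 stood apart in Foxa1 and Onecut1. Mouse 638 also had the highest Nr1i3, Prox1 and Onecut1 levels of its group, and the highest Xist level.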

How the results depend on the processing

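The number of the 9 genes past the threshold was 0 in 325 of 326 runs, each of them 1 comparison under 1 other setting or without 1 array or mouse. The exception was 12-month ko non-tumor against wild-type liver without mouse 638. There the number ranged from 0 to 2 when 1 array was left out, with Cebpa at -1.59 (adjusted p = 0.0222) and Nr1i3 at -2.31 (adjusted p = 0.0143). Counts over all features moved far more in that comparison, from 0 to 3159 between settings, and from 0 to 1493 in tumors against wild type. For the pairs, leaving out the replicate block of the mouse also gave 0 of the 9. Of 583 values of the 49 printed differences under other settings, 7 changed sign. For 12-month ko non-tumor against wild-type liver these were Hnf4a with all its probes averaged (-0.74) and Foxa1 with scan day as a block (0.66). For wild type of 12 against 2 months it was Foxa2 with slide as a block (-0.29). For tumor against non-tumor they were Foxa1 with normexp (-0.0034), Cebpa with all probes averaged (0.037) or Xist as a covariate (0.0846) and Foxa3 with Xist (0.0080). The causes were not tested. Scan day as a block moved the median of all features in 12-month ko non-tumor against wild-type liver from -0.09 to -0.54, with 1 wild-type array left on the day of the ko arrays. Leaving out 1 array gave ranges across 0 in 12-month ko non-tumor against wild-type liver for Hnf4a (-0.16 to 0.28), Foxa1 (-0.76 to 0.49) and Foxa2 (-0.19 to 0.51). Leaving out 1 mouse did so in the pairs for Foxa1 (-0.021 to 0.123), Foxa3 (-0.273 to 0.0129) and Cebpa (-0.271 to 0.101). Onecut1 at 12 months was -0.07 with scan day as a block. A model of only the groups compared gave Nr1i3 in 2-month ko against hemizygous mice an adjusted p of 0.0511, in a range of 0.0511 to 1.0 over its alternatives. A model of only these groups is the same fit for the pairs, and one of all 25 arrays for tumors against wild type, so neither was run again.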
